A study of Homo sapiens with 60 samples.

Results

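The 34 genes described here code for the enzymes, feedback proteins and transcription factors of cholesterol and fatty acid synthesis. They were picked by name from the 60675 gene rows of the count table, and all 34 were among the 17792 genes that passed the filter on low counts. They were split by function into a sterol branch of 20 genes (18 enzymes with INSIG1 and STARD4), a fatty acid branch of 11 genes, and 3 regulators (SREBF1, SREBF2 and SCAP). RNA was sequenced from SW1783, an established human astrocytoma line, kept for 24 h with a vehicle, with wortmannin or with a hot-water extract of 1 of 6 medicinal herbs. Each of the 20 groups has 3 libraries. The vehicle group received DMSO, at 0.1% by the sample labels and at 2% by the series text, and the files do not settle which. Wortmannin, an inhibitor of phosphatidylinositol 3-kinases, was given at 10 µM. Liriopis seu Ophiopogonis Tuber, Schisandrae Fructus, Longan Arillus, Zizyphi Semen and Aucklandiae Radix were given at 500 (high), 100 (medium) and 20 µg/mL (low), and Polygalae Radix at 250, 50 and 10 µg/mL. By the series text, an extract that inhibited the cells was dosed from its own IC20, and Polygalae is the extract whose doses differ from the others. The labels give no DMSO content for the treated cultures, and whether the 3 libraries of a group are separate cultures is not stated. The p-values below therefore measure the spread between libraries, estimated over all 20 groups in 1 fit, and that spread may be technical.

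Cholesterol and fatty acids are both built from cytosolic acetyl-CoA. The genes of both branches are driven by the SREBP transcription factors, which are made as membrane proteins of the endoplasmic reticulum. SCAP escorts them to the Golgi for cleavage when membrane sterol is low, and INSIG proteins hold the complex back when sterol is plentiful. SREBP-2 (SREBF2) is known chiefly for sterol genes and SREBP-1c (from SREBF1) for fatty acid genes, where the LXR receptors and insulin signalling also act on it. Because lipoproteins do not cross from blood to brain, the brain makes its own cholesterol, and astrocytes are a main source in the adult.

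Total counts per library ran from 9343000 to 35350000, to 4 digits. By library name, vehicle is alone in set A1, wortmannin is set 1, Liriopis and Schisandrae are set 2, Longan and Zizyphi set 3, and Polygalae and Aucklandiae set 4, so a treatment and a set cannot be told apart in contrasts with vehicle, whereas the doses of an extract share a set. Of 8 astrocyte markers, 4 passed the filter, with a summed level of 4880 to 4950 CPM (counts scaled to the TMM-adjusted library total) in vehicle that was nearly all VIM (4756 to 4832), and the defining markers GFAP (0.108 to 0.219) and AQP4 (0 in all 3 libraries) were near or at 0. Summed markers of neurons (51 to 55.1), oligodendrocytes (6.68 to 7.63), leukocytes (9.75 to 10.8), endothelium (1.16 to 1.28) and epithelium (0.329 to 0.657) were below that sum in the same libraries. The neuron sum was nearly all SNAP25 (mean 27.94 CPM) and SYT1 (25.06). Beside VIM, the astrocyte markers that passed the filter were SOX9 (81.08), SLC1A3 (31.53) and NES (7.236). Replicate 1 of Liriopis_high stands apart: its mean correlation with its group was 0.9453, and it decides every member call of that group. In Polygalae_high the TMM scaling factors were 1.08 to 1.12 (0.977 to 0.984 in vehicle) and mitochondrial transcripts took 12.4 to 13.4% of counts (10.3 to 10.6% in vehicle).

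The promoters below are those of the members with the largest dose effects of each branch, LSS and TM7SF2 for sterol and ACLY and ACSS2 for fatty acid synthesis, among members called under Polygalae or Schisandrae and present in the promoter table. MSMO1, which rose under Schisandrae and wortmannin, and SREBF2, which holds a sterol regulatory element, were added after their values were seen. Each is the 250 bases before the RefSeq transcription start on GRCh38.p14, 5′ to 3′ on the gene's strand. Capitals mark matches on either strand to the sterol regulatory element TCACNCCAC, the CCAAT box, the E-box CACGTG and the GC box GGGCGG. NF-Y and SP1, known partners of the SREBPs, bind the CCAAT and GC boxes. ACLY and ACSS2 have 2 starts in the table, and the first is shown.
LSS, lanosterol synthase, chr21:46228775-46229024, minus strand: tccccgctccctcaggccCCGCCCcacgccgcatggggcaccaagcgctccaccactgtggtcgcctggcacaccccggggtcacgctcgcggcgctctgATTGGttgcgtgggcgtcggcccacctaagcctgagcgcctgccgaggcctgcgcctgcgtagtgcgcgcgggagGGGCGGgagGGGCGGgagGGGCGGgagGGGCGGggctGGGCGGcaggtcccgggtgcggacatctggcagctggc
TM7SF2, a sterol reductase, chr11:65111622-65111871, plus strand: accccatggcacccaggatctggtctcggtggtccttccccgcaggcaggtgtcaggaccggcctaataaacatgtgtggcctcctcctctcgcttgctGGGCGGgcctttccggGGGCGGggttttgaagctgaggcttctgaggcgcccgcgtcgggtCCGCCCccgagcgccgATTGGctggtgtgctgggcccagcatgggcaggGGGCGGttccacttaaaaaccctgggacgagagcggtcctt
ACLY, ATP citrate lyase, chr17:41919023-41919272, minus strand: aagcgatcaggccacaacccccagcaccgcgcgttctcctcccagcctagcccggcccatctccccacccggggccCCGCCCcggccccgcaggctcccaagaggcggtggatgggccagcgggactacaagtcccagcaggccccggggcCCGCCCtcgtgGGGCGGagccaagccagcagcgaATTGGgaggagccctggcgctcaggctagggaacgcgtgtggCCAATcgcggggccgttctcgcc
ACSS2, acetyl-CoA synthetase, chr20:34874739-34874988, plus strand: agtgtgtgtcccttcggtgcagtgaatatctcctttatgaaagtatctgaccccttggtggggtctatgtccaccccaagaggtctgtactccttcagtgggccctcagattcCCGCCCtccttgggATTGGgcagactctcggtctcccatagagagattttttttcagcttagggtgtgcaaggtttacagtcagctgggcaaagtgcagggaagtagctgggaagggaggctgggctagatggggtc
MSMO1, sterol methyl oxidase, chr4:165327419-165327668, plus strand: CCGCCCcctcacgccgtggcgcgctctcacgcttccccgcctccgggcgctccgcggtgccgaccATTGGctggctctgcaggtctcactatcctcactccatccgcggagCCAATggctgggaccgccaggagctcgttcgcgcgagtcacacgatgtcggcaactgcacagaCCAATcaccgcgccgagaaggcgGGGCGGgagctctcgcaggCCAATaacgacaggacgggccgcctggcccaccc
SREBF2, the SREBP-2 gene, chr22:41832855-41833104, plus strand: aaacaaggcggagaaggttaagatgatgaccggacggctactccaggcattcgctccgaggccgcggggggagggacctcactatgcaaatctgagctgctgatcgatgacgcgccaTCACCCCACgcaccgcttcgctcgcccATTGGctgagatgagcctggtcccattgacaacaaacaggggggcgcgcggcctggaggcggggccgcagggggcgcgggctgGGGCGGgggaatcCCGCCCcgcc

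Of the 34 members, 30 were found in the promoter table (ACAT2, FDFT1, SQLE and FASN were not). Within the 250 bases, a CCAAT box was present in 15 of 17 sterol and 6 of 10 fatty acid promoters, and in 22 of the 30 members, against 37.0% of 27305 genes. The GC box was present in 28 of 30 members and in 46.24% of all genes. The E-box was found in 4 members (7.73% of all genes), ELOVL5, INSIG1, SC5D and SCAP. The sterol regulatory element in this spelling was found in 2 members, MID1IP1 and SREBF2, and in 1.09% of all genes. The shares of all genes include genes that did not pass the filter on low counts, which all members passed. A comparison with expressed genes alone was not made. A gene with several starts counted as holding a motif if any start did. These are matches of letters in a window and are not measurements of binding. The promoters of LSS and MSMO1, whose messages moved in opposite directions under Schisandrae, both hold CCAAT and GC boxes (1 and 6 in LSS, 4 and 2 in MSMO1).

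In vehicle, the fatty acid branch held the most abundant messages per length. On a scale of counts per base of merged exon, rescaled to the same total in each library, ACLY, which makes cytosolic acetyl-CoA from citrate, was at 289 ± 5.74 (SD, n = 3). ELOVL5, an elongase of polyunsaturated fatty acids, was at 246 ± 7.09, and the desaturase SCD at 156 ± 11.1. INSIG1 led the sterol branch at 118 ± 6.24 on this scale. FASN, the fatty acid synthase, was at 110.5 ± 4.10 and CYP51A1, the lanosterol demethylase, at 106.2 ± 1.54, a gap close to the SD of FASN. At the other end, HSD17B7, a ketoreductase of sterol demethylation, was at 3.13 ± 0.145 and TM7SF2 at 0.684 ± 0.218, so TM7SF2 fold changes rest on few reads. FADS1 and FADS2, the desaturases of polyunsaturated fatty acids, overlap on opposite strands of chromosome 11 (61799625 to 61829318 and 61792980 to 61867354, GRCh38). ACAT2, MVK, ACSS2, ACACA, SREBF1 and TM7SF2 also overlap another coding gene. The strand setting of the counting is not given in the sources used here, so reads of such pairs may have been shared out between them. Counts were not whole in 100% of libraries for ACAT2, 96.7% for FADS1 and FADS2, 58.3% for MVK and 51.7% for SREBF1. For ACSS2, ACACA and TM7SF2 they were not whole in 0% of libraries.

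**Figure D1:**
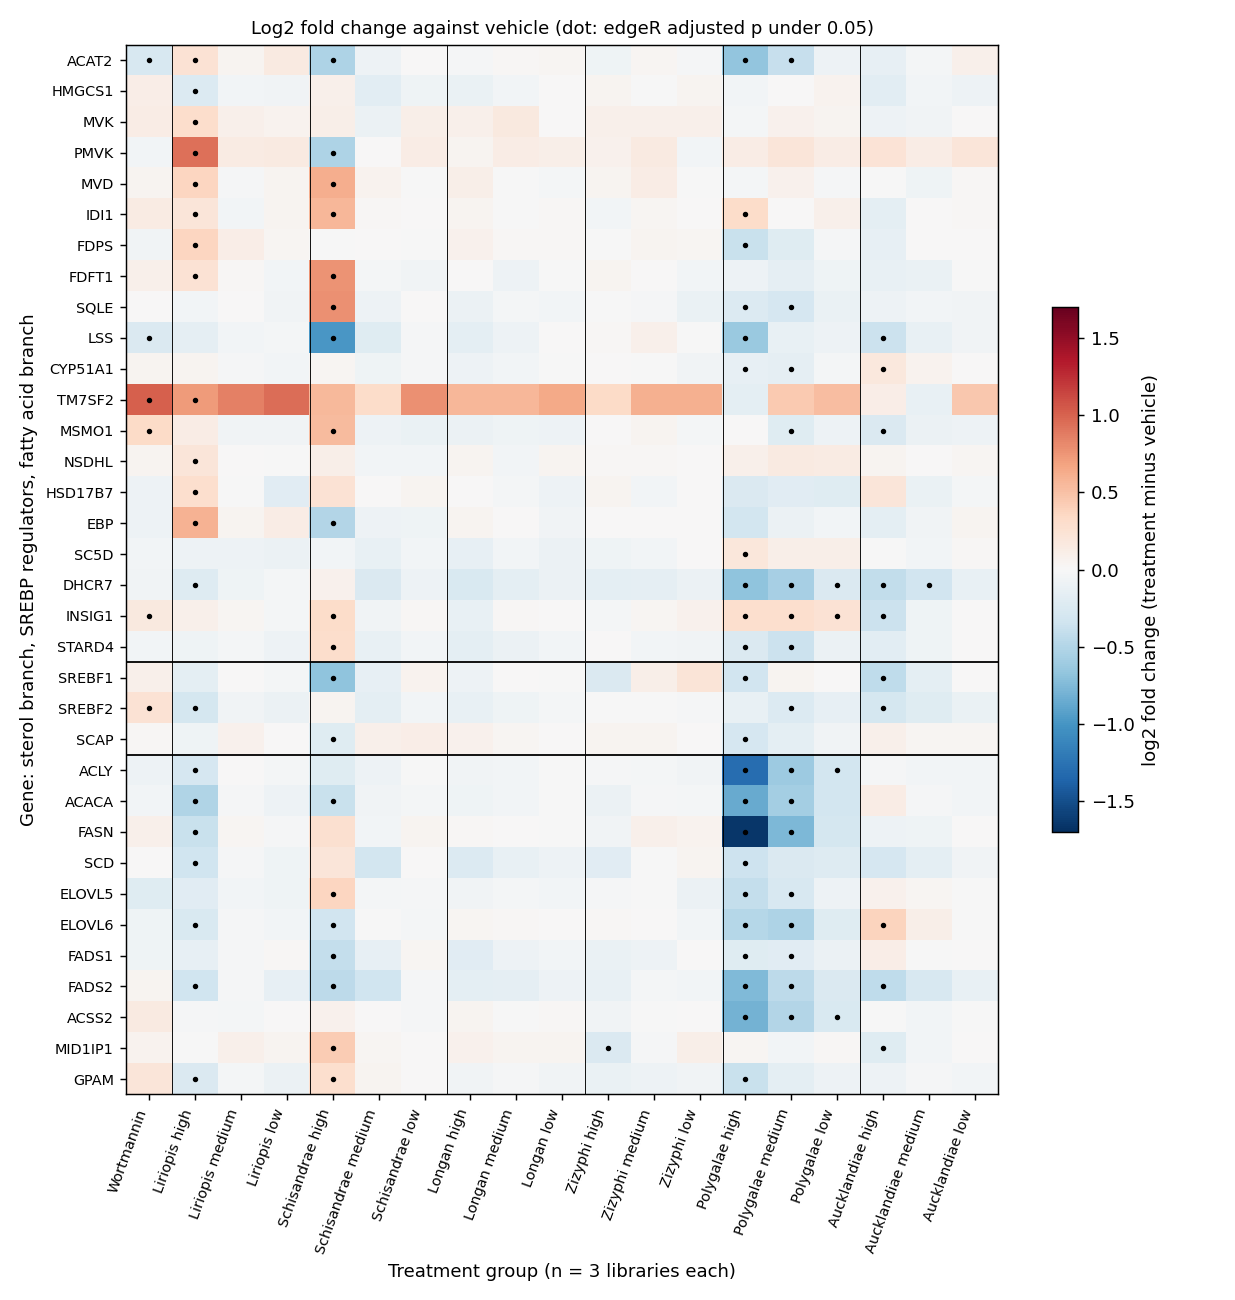
Log2 fold change against vehicle of each of the 34 genes (rows, by branch) in the 19 treatment groups (columns, 3 libraries each), with a dot where the edgeR adjusted p was under 0.05. The fatty acid rows are blue under Polygalae, where 10 of 11 fell at the high dose, and Schisandrae_high mixes 10 rises and 10 falls, while the medium and low doses of Liriopis, Schisandrae and Longan carry no dot.

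Under Polygalae Radix the fatty acid branch was lower than in vehicle. Of its 11 genes, 10 fell at 250 µg/mL against vehicle, 8 at 50 µg/mL and 2 at 10 µg/mL, and none rose at any dose. Over all 34 members the falls and rises were 19 and 3 at the high dose (22.9% and 23.1% of all tested genes fell and rose), 15 and 1 at the medium dose (14.9% and 15.2%), and 3 and 1 at the low dose (3.46% and 3.01%, together 6.46%). Median log2 fold changes of the fatty acid branch were -0.49, -0.45 and -0.22, beside -0.12, -0.12 and -0.03 for the sterol branch, and the median of all genes at the high dose was 0.016. All libraries are bulk RNA of the SW1783 line, so the marker lists give levels within that line. In such RNA, fewer cells in a given state and less RNA per cell cannot be told apart. VIM was at 4785 ± 41.1 CPM in vehicle and 1873 ± 116 at the high dose (SD, n = 3), where the summed astrocyte markers were 1840 to 2080 CPM, those of neurons 30.1 to 34.5, those of leukocytes 1.7 to 2.04 and those of oligodendrocytes 10.3 to 12. Gene by gene against vehicle, 3 of 4 tested astrocyte markers were called lower, and of 3 neuron markers 2 were lower and 1 higher (log2 1.68). Of 2 leukocyte markers 1 was lower (-2.7) and 1 was not called (0.8). Of 2 oligodendrocyte markers 1 was higher (0.67) and 1 was not called (-0.25), and the 1 endothelial marker tested was lower (-2.01). The part of these markers and of the mitochondrial share in the member results was not tested, and counts under another scaling are given below.

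FASN was at 319, 321 and 336 CPM in the 3 vehicle libraries and at 258, 273 and 263 at the low dose of Polygalae. The medium dose gave 205, 185 and 186 CPM, and the high dose 109, 104 and 99.0. The 4 groups stepped down in order of dose without any overlap between libraries. FASN was not called at the low dose against vehicle. Its call at the medium against the low dose (log2 -0.46, edgeR adjusted p = 0.024) was less secure. It was lost without any 1 Polygalae_low library or without Polygalae_medium replicate 2 or 3 (adjusted p up to 0.093), and with library totals in place of TMM. The high dose differed from the low by -1.35 in log2 fold change (SE 0.14, edgeR adjusted p = 1.3e-10) and from vehicle by -1.65 (SE 0.15, adjusted p = 2.3e-13), a level 0.32 times that of vehicle.

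ACLY stood at 469, 474 and 479 CPM in vehicle, 381, 387 and 379 at the low, 318, 307 and 299 at the medium and 196, 194 and 191 at the high dose. Libraries of each dose were again apart from those of the next. Between high and low dose the log2 fold change was -0.98 (SE 0.10, adjusted p = 3.1e-11). The ACLY call of the low dose against vehicle (log2 -0.31, adjusted p = 0.047) was lost without any 1 of the 3 Polygalae_low or 3 vehicle libraries, at an adjusted p of up to 0.14. Of the 7 left-out fits only the fit without Liriopis_high replicate 1 kept it. In that library ACLY was at 235 CPM, against a mean of 464 in replicates 2 and 3 of its group.

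ACACA, the acetyl-CoA carboxylase that commits carbon to fatty acids, went from 148, 160 and 170 CPM in vehicle to 90.1, 83.6 and 89.2 at the high dose (log2 against low dose -0.55, SE 0.16, adjusted p = 0.0048). ACSS2, which makes acetyl-CoA from acetate, went from 39.9, 39.5 and 39.0 to 20.8, 23.3 and 23.8 CPM (-0.55, SE 0.06, adjusted p = 4.7e-10). FADS2 went from 75.4, 75.3 and 76.1 to 42.1, 46.4 and 46.0 CPM (-0.52, SE 0.10, adjusted p = 4e-05). For these 3, ACLY, FASN and ELOVL5, every library of vehicle, low, medium and high dose lay in falling order without overlap, a pattern seen in 4.68% of all genes and in no gene of the sterol branch. No member rose in that ordered way (3.15% of all genes).

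ELOVL5 fell by 0.31 between low and high dose on the log2 scale (adjusted p = 0.00087) and ELOVL6, which elongates palmitate, by 0.27 (adjusted p = 0.0024). GPAM, the acyltransferase that starts glycerolipid synthesis, fell by 0.31 (adjusted p = 0.012). Its call was lost without Polygalae_high replicate 2 or 3 or Polygalae_low replicate 2 (adjusted p up to 0.085). FADS1 and SCD were called lower at the high dose against vehicle (log2 -0.21 and -0.35, adjusted p = 0.0019 and 0.011) and were not called against the low dose. FADS1 was also called lower at the medium dose against vehicle (-0.19, adjusted p = 0.0094), a call lost without Polygalae_medium replicate 3 or Vehicle replicate 3 (adjusted p up to 0.083). The SCD call was lost without Vehicle replicate 2 (adjusted p = 0.051). MID1IP1, which helps acetyl-CoA carboxylase form filaments, was the fatty acid member that was not called at any Polygalae dose, at 60.5, 57.3 and 58.7 CPM in the high dose and 58.5, 59.1 and 54.9 in vehicle.

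**Figure D2:**
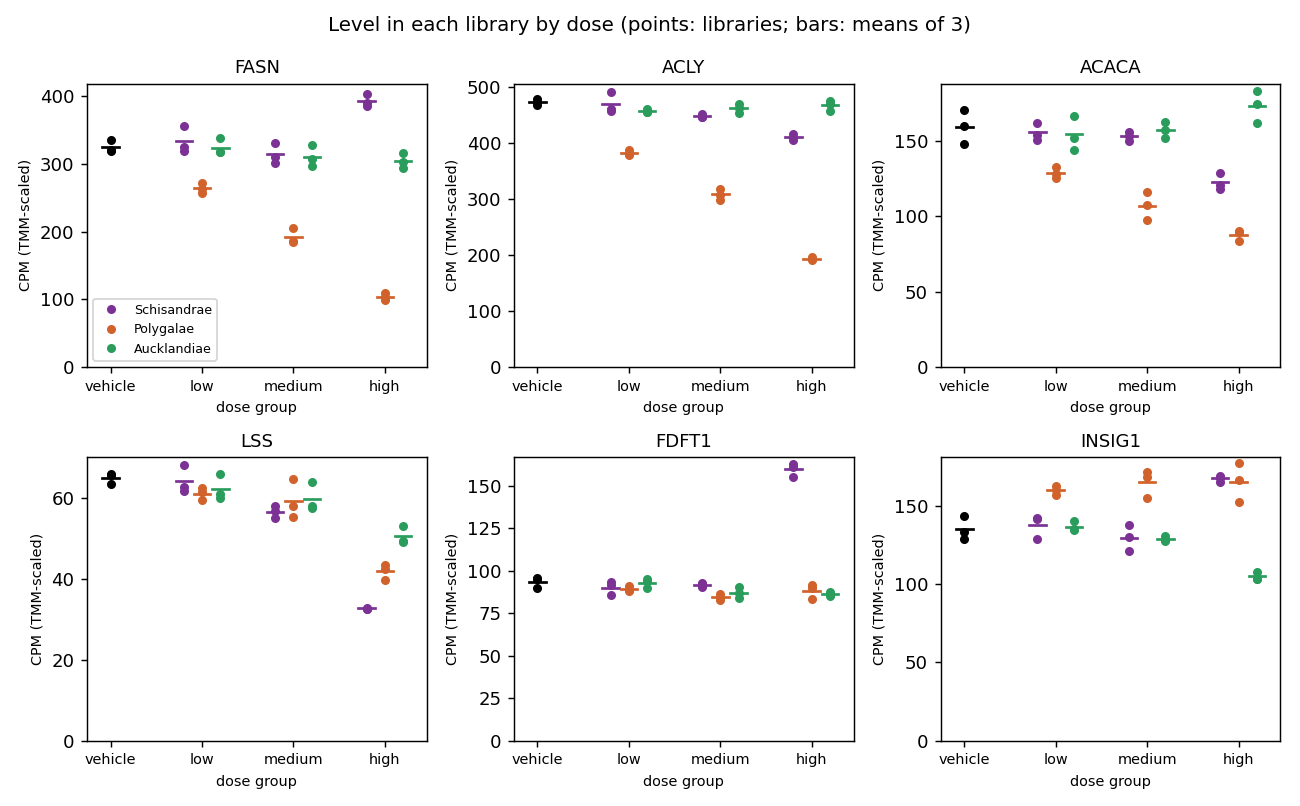
CPM of 6 genes in each library (points) with the mean of 3 (bars), in vehicle and at the low, medium and high dose of Schisandrae, Polygalae and Aucklandiae. FASN, ACLY and ACACA step down with Polygalae dose, FDFT1 is raised at the high dose of Schisandrae alone of these 3 extracts, and INSIG1 is above vehicle under Polygalae and below it at the high dose of Aucklandiae.

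The sterol branch held both falls and rises under Polygalae, as all genes did. At the high dose 7 of its 20 genes fell and 3 rose against vehicle (22.9% and 23.1% of all genes, together 46.1%). Against the low dose 6 fell and 1 rose, and over all members 16 fell and 1 rose (18.3% and 17.9% of all genes). DHCR7, the reductase of the last step to cholesterol, was at 38.3, 37.5 and 35.9 CPM in vehicle and 21.5, 24.2 and 23.5 at the high dose (log2 -0.69, SE 0.07, adjusted p = 3e-11). LSS, which closes the sterol rings, went from 66.0, 65.7 and 63.7 to 42.6, 43.4 and 39.8 CPM (-0.63, SE 0.07, adjusted p = 4.3e-11). ACAT2, which joins the first acetyl-CoA units, went from 32.5, 30.1 and 32.7 to 20.1, 19.1 and 20.6 CPM (-0.67, SE 0.09, adjusted p = 8.9e-09). For each of these the high-dose libraries lay wholly below vehicle. FDPS (log2 -0.38), STARD4, a sterol carrier (-0.25), SQLE, the squalene epoxidase (-0.23), and CYP51A1 (-0.14) made up the other falls. The STARD4 call was lost without Polygalae_high replicate 3 (adjusted p = 0.078). TM7SF2 was called lower between high and low dose (log2 -0.70, adjusted p = 0.033), and that call was lost without Polygalae_high replicate 1 or 2 or Polygalae_low replicate 1 or 3 (adjusted p up to 0.27).

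INSIG1, the feedback protein that holds SCAP in the endoplasmic reticulum, moved the other way. It was at 129, 143 and 133 CPM in vehicle, 160, 163 and 157 at the low dose, 168, 171 and 155 with the medium and 177, 166 and 152 with the high dose of Polygalae. All 9 treated libraries were above all 3 vehicle libraries, and the doses overlapped one another. Its log2 fold changes against vehicle were 0.24, 0.29 and 0.29 (SE 0.05 each, adjusted p = 0.0011, 1.2e-05 and 4.4e-06). IDI1, the isopentenyl diphosphate isomerase, rose at the high dose from 35.5, 37.9 and 34.8 to 43.6, 45.8 and 44.6 CPM (0.31, SE 0.07, adjusted p = 5.2e-04). Its smaller rise against the low dose (0.22, adjusted p = 0.018) was lost without Polygalae_high replicate 2 or Polygalae_low replicate 1 (adjusted p up to 0.066). SC5D, a sterol desaturase, rose by 0.19 against vehicle (adjusted p = 0.033), and its call was lost without Polygalae_high replicate 2 or Vehicle replicate 1 or 3 (adjusted p up to 0.21).

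Of the regulators, SREBF1 was at 46.1, 45.0 and 45.1 CPM at the high dose of Polygalae and 56.5, 56.4 and 57.8 in vehicle (log2 -0.33, SE 0.07, adjusted p = 1e-04). SCAP fell by 0.29 (adjusted p = 2.4e-04). SREBF2 was not called at the high dose (-0.12, adjusted p = 0.28) and was called lower at the medium dose (-0.23, adjusted p = 0.035), a call lost without Polygalae_medium replicate 2 or Vehicle replicate 1 or 3 (adjusted p up to 0.19). Scaling mattered to these counts: with library totals in place of TMM, chosen after seeing the data, the median of all genes at the high dose against vehicle moved to 0.181. Member calls there became 6 rises and 11 falls, against the low dose 4 and 10 (median of all genes 0.114), and 7 of the 10 fatty acid falls were called again in the same direction. At the medium and low dose against vehicle the rises and falls became 2 and 10, and 1 and 1. Against vehicle neither regulator call of the high dose was kept, and CYP51A1 changed sign to 0.02 on the log2 scale. Against the low dose 1 of 2 regulator calls was kept, that of SREBF1 (-0.34 with TMM, adjusted p = 9.6e-05). At the low dose, where 4 members were called, the count was 2 without Polygalae_low replicate 2 or 3 or Vehicle replicate 1 or 2, and 10 without Liriopis_high replicate 1. Between medium and low dose 9 members fell and none rose (5.7% and 5.23% of all genes). That count was 4 without Polygalae_low replicate 1 or Polygalae_medium replicate 3, and 5 without Polygalae_low replicate 3 or Polygalae_medium replicate 2.

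Neighbouring lipid pathways were read from lists beside the members. Their counts in Polygalae_high stand beside 23.1% of all genes higher and 22.9% lower against vehicle, and 17.9% and 18.3% against the low dose. In sterol uptake and traffic, 6 of 9 genes were called higher and 2 lower against vehicle (median log2 0.45, and 0.016 over all genes). NPC1, which exports cholesterol from lysosomes, was at 211, 220 and 230 CPM in vehicle and at 646, 632 and 664 at the high dose (log2 1.56, adjusted p = 1e-14), and already at 350, 363 and 343 at the low dose. SOAT1, which esterifies cholesterol, rose by 0.45 and TMEM97, which binds NPC1, by 0.56, while LIPA, the lysosomal acid lipase, fell by 0.68. In fatty acid oxidation, 6 of 10 genes were called lower and 1 higher against vehicle, and 8 and 1 against the low dose. HADHA, a subunit of the mitochondrial trifunctional protein, went from 151, 152 and 148 to 73.4, 72.0 and 72.9 CPM (log2 -1.05, adjusted p = 2.1e-24). Of 6 genes of SREBP processing, 4 fell and 1 rose against vehicle (median log2 -0.20). The 1 that rose was INSIG2, the second INSIG protein, by 0.76 (edgeR adjusted p = 2.5e-08). Of the 7 genes of LXR and efflux 3 fell and 1 rose against vehicle, with LPCAT3 at -0.95.

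Schisandrae Fructus at 500 µg/mL moved a similar number of members but in both directions within each branch. Against its low dose 10 of 34 members rose and 9 fell (25% and 24.8% of all genes), and against vehicle 10 and 10 (25.3% and 25.6%). Both the counts and their even split are near those of all genes. The sterol branch had 7 rises and 4 falls, the fatty acid branch 3 and 3, and the regulators 0 and 2 against the low dose. The sterol rises included the enzymes MVD, IDI1, FDFT1, SQLE and MSMO1, while FDPS (0.00) and CYP51A1 (0.06), which act between them, were not called, and LSS, which follows SQLE, fell. At 100 and 20 µg/mL no member was called by edgeR against vehicle (1.02% and 0% of all genes), with 7 and 2 members at an unadjusted p under 0.05 and 2 and 0 called by DESeq2. The medium against the low dose gave 0 by edgeR (0.332% of all genes), 6 unadjusted and 0 by DESeq2. Without Liriopis_high replicate 1, the edgeR counts of the medium dose were 5 against vehicle and 4 against the low dose.

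FDFT1, the squalene synthase, was at 91.4, 93.1 and 85.7 CPM at the low dose of Schisandrae and 161, 155 and 163 at the high dose (log2 0.83, SE 0.08, adjusted p = 3.4e-12). SQLE, the next enzyme, went from 62.7, 67.6 and 62.8 to 105, 116 and 107 CPM (0.77, SE 0.06, adjusted p = 2e-15). MSMO1, which oxidises sterol methyl groups, went from 37.6, 34.9 and 35.4 to 56.6, 56.4 and 56.6 CPM (0.65, SE 0.05, adjusted p = 5.3e-14). In all 3 the high-dose libraries were above every library of low dose, medium dose and vehicle. MVD, the mevalonate diphosphate decarboxylase, rose by 0.62 (SE 0.12, adjusted p = 1.4e-05) to 30.6, 30.9 and 30.7 CPM. IDI1 rose by 0.57 (SE 0.07, adjusted p = 1.2e-08), STARD4 by 0.34 (adjusted p = 6.8e-05) and INSIG1 by 0.28 (adjusted p = 6e-06).

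LSS, which acts between SQLE and MSMO1 in the pathway, went from 61.8, 62.9 and 68.4 CPM at the low dose to 33.0, 32.6 and 32.7 at the high dose of Schisandrae (log2 -0.97, SE 0.07, adjusted p = 1.7e-16). Its high-dose libraries were all below every library of vehicle, low and medium dose. PMVK, the phosphomevalonate kinase, went from 19.8, 17.7 and 21.4 to 12.9, 12.6 and 12.3 CPM (-0.64, SE 0.19, adjusted p = 0.0053). ACAT2 fell by 0.53 (adjusted p = 2e-06) and EBP, a sterol isomerase, by 0.43 (adjusted p = 0.0082). HMGCS1, the synthase before mevalonate, was not called (0.17, adjusted p = 0.054), nor were MVK, FDPS, CYP51A1, TM7SF2, NSDHL, HSD17B7, SC5D and DHCR7, which lay between -0.23 and 0.21.

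SREBF1 fell at the high dose of Schisandrae from 58.6, 57.5 and 61.5 CPM at the low dose to 37.0, 33.6 and 35.2 (log2 -0.75, SE 0.07, adjusted p = 1.6e-12), and SCAP fell by 0.32 (adjusted p = 5.4e-05). SREBF2 was not called (0.09, SE 0.09, adjusted p = 0.42). Among fatty acid genes MID1IP1 rose from 55.4, 60.01 and 58.6 to 80.0, 75.1 and 76.9 CPM (0.41, SE 0.04, adjusted p = 4.8e-11) and ELOVL5 from 300, 292 and 281 to 378, 386 and 374 CPM (0.38, SE 0.08, adjusted p = 3.7e-05). FADS1 went from 98.4, 93.8 and 105 to 75.3, 72.8 and 71.4 CPM (-0.44, SE 0.06, adjusted p = 1.6e-08), FADS2 fell by 0.42 (adjusted p = 4.2e-04) and ELOVL6 by 0.28 (adjusted p = 0.0012). FASN was at 404, 390 and 386 CPM at the high dose and 326, 319 and 357 at the low dose, apart in every library, and was not called (0.24, SE 0.14, adjusted p = 0.16). ACLY (-0.20, adjusted p = 0.096) and ACACA (-0.35, adjusted p = 0.066) were not called against the low dose. FASN, ACLY and ACACA were at 118, 235 and 46.6 CPM in Liriopis_high replicate 1, against means of 316, 464 and 144 in replicates 2 and 3. That library is in the same fit, and the values of these genes in a fit without it are not reported here. Over the fits that left out 1 library, that one among them, edgeR called 18 to 26 members against the low dose. Against vehicle the range was 18 to 23. Of the 19 calls 18 were kept whichever library was left out, and GPAM (0.27, adjusted p = 0.019) was lost without Schisandrae_high replicate 2 or 3 or Schisandrae_low replicate 2 or 3 (adjusted p up to 0.067). Beside these, 6 of 9 genes that use mevalonate products outside sterol synthesis rose and 1 fell against the low dose, where 25% and 24.8% of all genes did, among them FNTA, a prenyltransferase subunit (0.61), and NUS1 of dolichol synthesis (0.46). Summed neuron markers were 21.9 to 24.4 CPM at the high dose against 46.4 to 52.4 at the low dose, those of leukocytes 2.4 to 2.66 against 9.87 to 11.1 and those of oligodendrocytes 11.4 to 14.2 against 6.93 to 7.85. Of the 4 astrocyte markers tested 3 were called lower (median log2 -0.90), while their sum, nearly all VIM, was 4740 to 4980 against 4600 to 4890 CPM. Of the 3 neuron markers tested 2 were called lower and 1, RBFOX3, higher (log2 1.40). The 2 leukocyte markers tested split, with 1 called lower (-2.28) and 1 higher (1.28). Of the 2 oligodendrocyte markers tested 1 was called higher (0.82) and 1 was not called (-0.73). The part of these markers in the Schisandrae results was not tested.

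The dose effects of Schisandrae and Polygalae were compared directly, as the difference between the high-against-low log2 fold changes of the 2 extracts, within 1 fit. Doses differ, at 500 and 20 µg/mL for Schisandrae and 250 and 10 µg/mL for Polygalae, and so do the library sets. In 20 of 34 members the dose effects differed, 17 toward Schisandrae and 3 toward Polygalae (20.7% and 20.3% of all genes). With library totals in place of TMM, the numbers were 12 and 4 (median of all genes -0.128). FASN differed most, by 1.59 (SE 0.20, adjusted p = 8.8e-09), from its fall under Polygalae and the value of 0.24 under Schisandrae. SQLE (0.89), FDFT1 (0.84), DHCR7 (0.59) and MSMO1 (0.55) led the sterol branch, and ACLY (0.79), ELOVL5 (0.69) and ACSS2 (0.63) followed FASN in the other. LSS (-0.43, adjusted p = 2.6e-04), SREBF1 (-0.41, adjusted p = 6.7e-04) and FADS1 (-0.33, adjusted p = 0.001) were lowered further by Schisandrae. ACAT2 fell under both extracts, at -0.53 and -0.60, and the difference of 0.07 (SE 0.12) was not called. The HMGCS1 difference (0.27, adjusted p = 0.033) was lost in several of the fits that left out 1 library, Polygalae_high replicate 1 among them (adjusted p up to 0.094 over those fits).

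**Figure D3:**
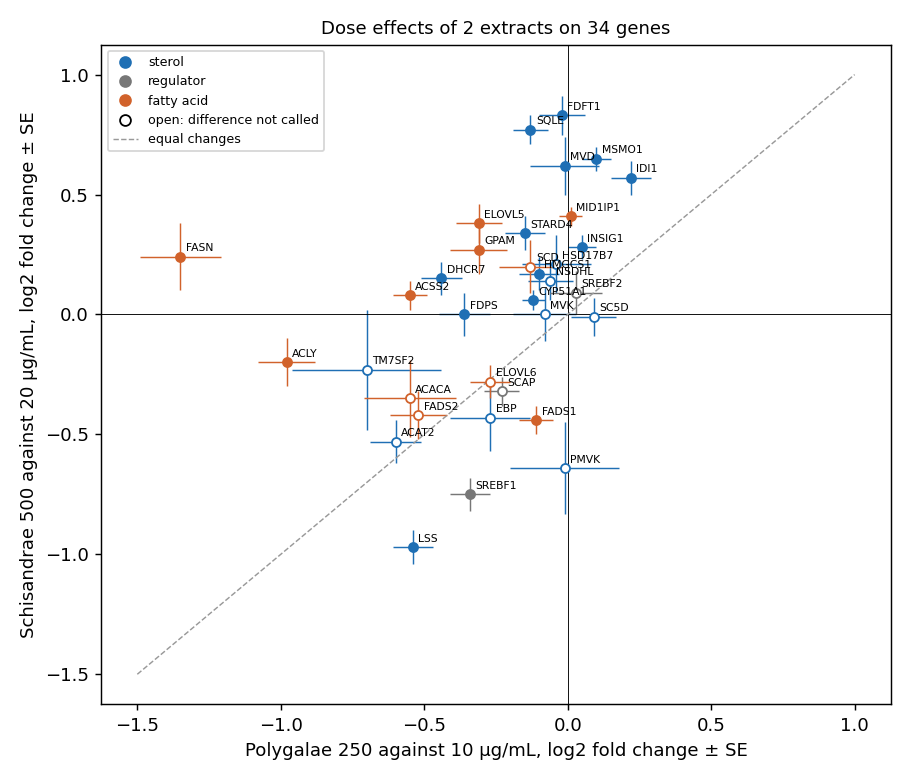
Log2 fold change of high against low dose for each of the 34 genes under Polygalae (horizontal, ± SE) and Schisandrae (vertical, ± SE), with the dashed line where both are equal and filled points where the difference was called. FASN lies farthest from the line at -1.35 and 0.24, and LSS and SREBF1 lie below it with falls under both extracts.

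Under Aucklandiae Radix at 500 µg/mL INSIG1 and SREBF1 fell, and 3 of 11 fatty acid genes were called. Against its low dose 7 members fell and 2 rose (5.3% and 5.32% of all genes), and against vehicle 8 and 2 (6.69% and 6.54%). INSIG1 was at 140, 135 and 135 CPM at the low dose and 103, 103 and 108 at the high dose (log2 -0.38, SE 0.05, adjusted p = 1.8e-07). SREBF1 went from 55.1, 59.6 and 57.5 to 42.7, 43.2 and 40.5 CPM (-0.45, SE 0.07, adjusted p = 4.6e-06). Both genes had every high-dose library below every low-dose library. DHCR7 fell by 0.31 (adjusted p = 0.0023), LSS by 0.30 (adjusted p = 0.0011) and MID1IP1 by 0.21 (adjusted p = 5.2e-04). ELOVL6 rose from 43.7, 40.5 and 43.4 to 56.6, 55.3 and 54.6 CPM (0.38, SE 0.07, adjusted p = 1.2e-04) and CYP51A1 by 0.17 (adjusted p = 0.0019). The calls of FADS2 (-0.31, adjusted p = 0.034) and MSMO1 (-0.17, adjusted p = 0.041) were each lost without any of several libraries, Aucklandiae_high replicates 2 and 3 and Aucklandiae_low replicate 1 in both cases (adjusted p up to 0.14 and 0.25). SREBF2, lower against vehicle (-0.30, adjusted p = 0.012), stepped down without overlap from vehicle through the 3 doses (0.253% of all genes). Its call was lost without Aucklandiae_high replicate 1 (adjusted p = 0.066).

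At 100 µg/mL of Aucklandiae DHCR7 alone was called against vehicle (log2 -0.32, adjusted p = 0.013; 0.242% of all genes fell). That count was 0 without Aucklandiae_medium replicate 1 or 3 or Vehicle replicate 1 or 2, and 4 without Liriopis_high replicate 1. The high-dose counts were 16 against the low dose and 17 against vehicle without that same Liriopis library. At 20 µg/mL no member was called by edgeR (0.00562% of all genes), and none had an unadjusted p under 0.05 or was called by DESeq2. The medium against the low dose gave 0 by edgeR too (0.0169% of all genes), with 3 members unadjusted and 0 by DESeq2.

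Polygalae and Aucklandiae share a library set, so their high doses, 250 and 500 µg/mL, were set against each other. In Polygalae_high 17 members were lower and 5 higher (22.5% and 23% of all genes), or 11 and 10 with library totals in place of TMM (median of all genes 0.167). In the fatty acid branch 9 of 11 were lower, with FASN at -1.55 (SE 0.14, adjusted p = 1.3e-12), ACLY at -1.27 (adjusted p = 6.7e-15) and ELOVL6 at -0.86 (adjusted p = 5.8e-14). INSIG1 was higher in Polygalae_high by 0.66 (SE 0.05, adjusted p = 3.6e-15), with 152 to 177 CPM against 103 to 108, and IDI1 by 0.48 (adjusted p = 4.9e-07). LSS and DHCR7, which fell under both extracts, were lower in Polygalae_high by a further -0.27 each (adjusted p = 7.9e-04 and 0.002). SREBF1, at 45.0 to 46.1 and 40.5 to 43.2 CPM, was not called between them.

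Under wortmannin no fatty acid gene was called, and the branch ranged from -0.21 to 0.21 in log2 fold change. Over all members 4 rose and 2 fell by edgeR (5.45% and 6.52% of all genes), 9 had an unadjusted p under 0.05 and DESeq2 called 7. MSMO1 was at 39.1, 39.0 and 38.4 CPM in vehicle and 51.3, 47.5 and 47.1 under wortmannin (log2 0.32, SE 0.05, adjusted p = 2.8e-05). TM7SF2 was at 0.511, 0.720 and 0.966 CPM in vehicle and 1.504, 1.55 and 1.39 under wortmannin (1.02, SE 0.25, adjusted p = 0.0032). Its vehicle mean of 0.732 was below that of 17 of the 19 treated groups. SREBF2 (0.25, adjusted p = 0.048), INSIG1 (0.17, adjusted p = 0.017), ACAT2 (-0.27, adjusted p = 0.028) and LSS (-0.24, adjusted p = 0.0094) lost their calls when single libraries were left out, LSS and INSIG1 without Wortmannin replicate 1 (adjusted p up to 0.054 and 0.13). The SREBF2 and ACAT2 calls were lost without Vehicle replicate 1, among others (adjusted p up to 0.17 and 0.11). The member count was 2 without Wortmannin replicate 1, 3 without Vehicle replicate 1 or 3, and 11 without Liriopis_high replicate 1. Vehicle and wortmannin libraries are in different sets, and treatment and set cannot be told apart here.

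Zizyphi Semen moved a pair of members. SREBF1 was at 64.9, 68.9 and 65.4 CPM at its low dose and 44.1, 50.1 and 49.3 at its high dose (log2 -0.47, SE 0.07, adjusted p = 2.3e-05). MID1IP1 went from 61.1, 61.4 and 62.0 to 47.3, 49.1 and 50.0 CPM (-0.33, SE 0.04, adjusted p = 3e-06). In both, the doses did not overlap, and both calls were kept whichever library was left out. These are 2 of 34 members lower, where 0.382% of all genes were. Against vehicle MID1IP1 alone was called (-0.24, adjusted p = 0.0019; 0.36% of all genes fell), and the count was 3 without Liriopis_high replicate 1. SREBF1, at 56.4 to 57.8 CPM in vehicle, lay between the Zizyphi doses.

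The remaining extract groups gave no member call by edgeR. These were all 3 doses of Longan against vehicle (0.843%, 0.0281% and 0.00562% of all genes from high to low), its high against low dose (0.247%), and the medium and low doses of Liriopis (0.0112% and 0.00562%) and Zizyphi (0.0393% and 0%). At an unadjusted p under 0.05 the counts ran from 1 to 6 of 34, the most in Longan_high against vehicle, where DESeq2 called 2 members and edgeR 4 without Liriopis_high replicate 1. DESeq2 called none in the other comparisons named here. INSIG1 in Longan_high, at 123, 127 and 123 CPM, lay below its 3 vehicle libraries.

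Liriopis_high rests on 1 library. As deposited, 11 members rose and 10 fell against vehicle (18.7% and 15.2% of all genes), and 6 rose and 1 fell against the low dose (11.8% and 4.27%). With library totals in place of TMM the numbers against the low dose were 5 and 3. Without replicate 1 both counts were 0. In that library FASN was at 118 CPM against a mean of 316 in replicates 2 and 3, ACACA at 46.6 against 144 and ACLY at 235 against 464. Its sterol genes leaned upward, with PMVK at 60.9 against 21.5 CPM, EBP at 105 against 46.5 and FDPS at 92.0 against 55.1. Of the 11 fatty acid genes 10 were below the other 2 libraries' mean (median log2 ratio -0.75), and of the 20 sterol genes 13 were above it (median 0.23), beside a median of -0.01 over all genes. Among all 60 libraries it was the highest in 8 members and the lowest in 8 (26.9% and 25% of all genes).

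Exon length moved with that pattern. Across 17278 genes the log2 ratio of replicate 1 to the others had a Spearman rho of -0.46 with merged exon length, and across the 34 members -0.65, given as descriptions over genes of the same libraries. The median ratio was 0.61 in genes under 3000 bases, -0.47 at 6000 bases or more and 0.02 in between. Sterol genes have a median exon length of 4302 bases and fatty acid genes 7297, so a shift by length and a contrast of branches cannot be told apart in this library. In the Polygalae and Schisandrae dose contrasts rho across all genes was -0.08 and 0, and across members -0.3 and -0.24. Against the low dose with the low-dose libraries left out in turn, the count was 4 without Liriopis_low replicate 1, 0 without replicate 2 and 2 without replicate 3. With Liriopis_high replicate 2 or 3 left out it was 23 and 24. Against vehicle it was 10 without Vehicle replicate 2 and 9 without Vehicle replicate 3.

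**Figure D4:**
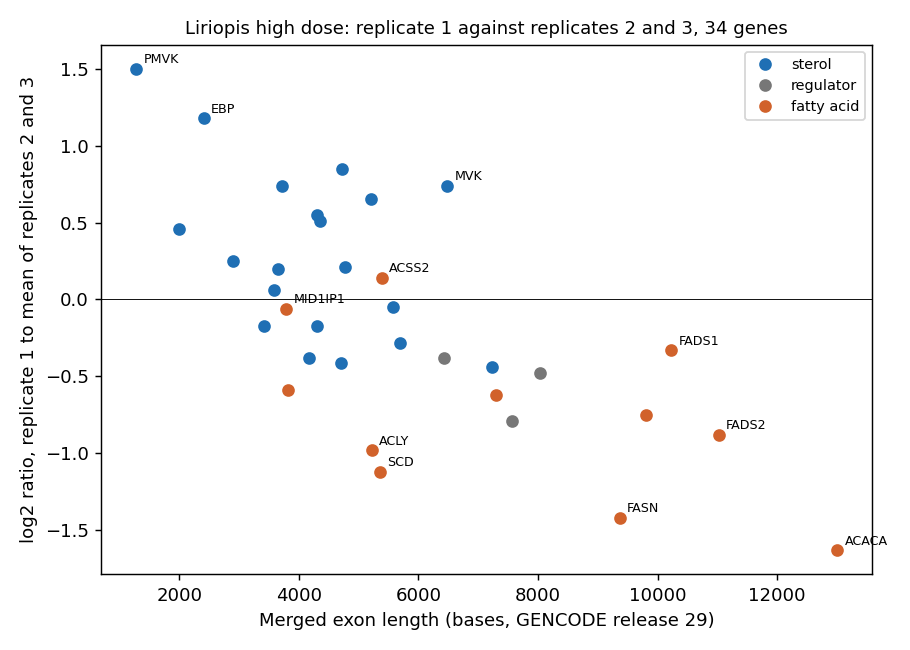
Log2 ratio of Liriopis_high replicate 1 to the mean of replicates 2 and 3 for each of the 34 genes, against merged exon length in bases. Shorter genes such as PMVK (1.5) and EBP (1.18) lie above 0 and long genes such as ACACA (-1.63) and FASN (-1.42) below it.

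Averaged over its genes, each branch can be read in every library as mean log2 CPM minus the vehicle mean. The fatty acid mean was -0.19, -0.40 and -0.65 at the low, medium and high dose of Polygalae (SD 0.008, 0.042 and 0.021, n = 3), and the sterol mean 0.01, -0.07 and -0.15 (SD 0.011, 0.018 and 0.041). These means depend on the scaling. With library totals in place of TMM, the median of all genes against vehicle was 0.065, 0.099 and 0.181 at these doses, and 0.003, 0.013 and 0.016 with TMM. The gap between branches, from which a shift common to all genes drops out, was 0.20, 0.32 and 0.51. In that gap the 3 libraries of each dose did not overlap with those of the next. In Schisandrae_high the sterol mean was 0.12 (SD 0.009) and the fatty acid mean -0.01 (SD 0.023), and in Aucklandiae_high they were -0.10 (SD 0.019) and -0.04 (SD 0.017). Outside Polygalae and Liriopis_high replicate 1 (sterol 0.367, fatty acid -0.803), group means of the fatty acid branch lay between -0.09 and 0.01. Replicates 2 and 3 of Liriopis_high were at 0.071 and 0.06 for sterol and -0.052 and -0.059 for fatty acid genes.

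**Figure D5:**
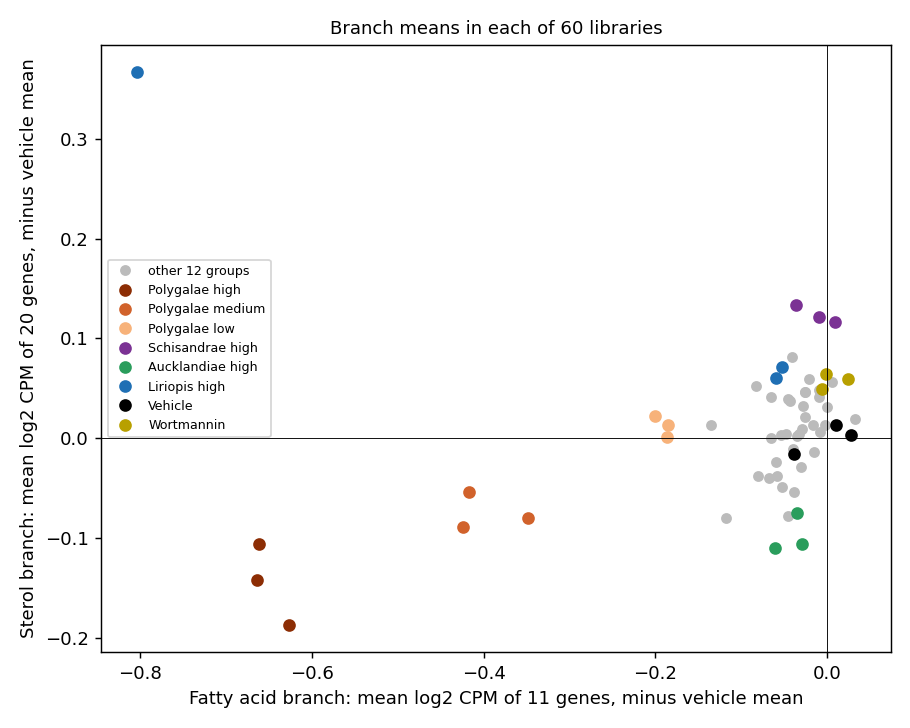
Mean log2 CPM of the 20 sterol genes (vertical) and of the 11 fatty acid genes (horizontal), each minus the vehicle mean, in each of the 60 libraries. Polygalae libraries run to the left with dose, down to -0.664 on the fatty acid axis, and Liriopis_high replicate 1 sits alone at the upper left.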

How the data were processed

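Gene expression was measured by directional mRNA sequencing (pairs of 100 bp reads, per the labels' protocols) in 60 libraries of 20 groups. The authors deposited expected counts per gene from RSEM, with 11.02% of values not whole. Trim Galore 0.6.5, STAR 2.7.3a, RSEM 1.3.3, FastQC 0.11.9 and GRCh38 are named in the submitters' processing notes. For the annotation release and the strand setting, the sources used here give none.

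Here, counts were rounded and fitted with 1 mean per group by edgeR 4.0.16 under R 4.3.3, with TMM scaling and quasi-likelihood tests (40 residual degrees of freedom, biological coefficient of variation 8.72%). The expression filter (minimum count 10) kept 17792 genes. The p-values were adjusted by Benjamini-Hochberg over the 17792 genes, separately in each of 30 comparisons, and a gene was called at an adjusted p under 0.05. "Rose" and "fell" are used for called genes. CPM values use TMM-scaled totals. Gene positions and exon lengths come from GENCODE release 29, and promoters from RefSeq. Branch means used log2 CPM with a prior count of 2. All 34 members could be named, and of each other list up to 4 called genes with the smallest p. Members, lists and tests were chosen with earlier results of these data known. In counts simulated for Polygalae_high against Polygalae_low over 17792 genes, 88 of 100 genes changed 1.5-fold and 99 of 100 changed 2-fold were called, and 9 of 17592 unchanged genes. The changed genes were drawn only from levels above those of TM7SF2 and HSD17B7 in vehicle. They were a far smaller share of genes than the 36.2% called in the data, so these rates need not hold for the members. Alternatives were DESeq2 1.42.0, its size factors in edgeR, no filter, a replicate block, fits of the compared groups alone, each library left out, and library totals alone.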

Additional observations from a re-analysis of the deposited data

Results flagged for a closer look

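The high-against-low dose effects of Schisandrae and Polygalae differed in 20 members by a test of the difference itself in edgeR, and each value here is the log2 effect of Schisandrae minus that of Polygalae. In the early sterol pathway the differences were 0.27 for HMGCS1, 0.63 for MVD, 0.35 for IDI1 and 0.37 for FDPS. In the later steps they were 0.84 for FDFT1, 0.89 for SQLE, -0.43 for LSS, 0.17 for CYP51A1, 0.55 for MSMO1 and 0.59 for DHCR7. For the feedback and carrier genes they were 0.24 for INSIG1 and 0.49 for STARD4, and for the regulator SREBF1 -0.41. In the fatty acid branch they were 0.79 for ACLY, 1.59 for FASN, 0.69 for ELOVL5, -0.33 for FADS1, 0.63 for ACSS2, 0.40 for MID1IP1 and 0.58 for GPAM. The extracts differ in dose and library set as well as in plant.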

How the results depend on the processing

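The number of members called stayed within 1.5 times its value under DESeq2 size factors in edgeR and under the replicate block in all 30 comparisons (17 and 19 under the block for high against low dose of Polygalae and Schisandrae, as without it). Replicate numbers do not pair the libraries (mean correlation of same-numbered deviations 0.003, range -0.269 to 0.22). With only the compared libraries in the fit, the counts were 14 and 16 for Aucklandiae_high against low dose and vehicle, 2 for Aucklandiae_medium, 0 for Liriopis_high in both, 1 for Longan_high, 9 for Polygalae_low, and 2 and 4 for Schisandrae_medium against low dose and vehicle. Without the filter they were 0 for Aucklandiae_medium and Zizyphi_high, 1 for Polygalae_low, 5 for Polygalae_medium against low and 2 for wortmannin. DESeq2 gave 13 for Liriopis_high against low and 2 each for Longan_high, Schisandrae_medium and Zizyphi_high against vehicle. Library totals gave 2 for Polygalae_low and 5 for Polygalae_medium against low, and CYP51A1 reversed to 0.02 in Polygalae_high against vehicle. The cause of these moves was not tested.

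With 1 library left out, counts ranged from 7 to 16 (Aucklandiae_high against low), 9 to 17 (Aucklandiae_high), 0 to 4 (Aucklandiae_medium), 0 to 24 (Liriopis_high against low), 0 to 26 (Liriopis_high), 0 to 4 (Longan_high), 2 to 10 (Polygalae_low), 4 to 13 (Polygalae_medium against low), 0 to 4 and 0 to 5 (Schisandrae_medium against low and vehicle), 2 to 11 (wortmannin) and 1 to 3 (Zizyphi_high). Without Liriopis_high replicate 1, EBP (against low) and FDFT1 (against vehicle) in Liriopis_high went to -0.02 and 0.00, and over all left-out libraries they reached 0.68 and 0.35. The sterol minus fatty acid difference of median log2 fold changes between high and low dose ranged from 0.21 to 0.31 in Polygalae (0.22 with all libraries), 0.02 to 0.11 in Schisandrae, 0.06 to 0.13 in Zizyphi, -0.04 to 0.02 in Longan, -0.17 to -0.11 in Aucklandiae and 0.06 (without Liriopis_high replicate 1) to 0.56 in Liriopis (0.33 with all libraries), and against vehicle from -0.02 to 0.08 under wortmannin. With 3 libraries a group, changes under 1.5-fold in genes of low count such as TM7SF2 are the least secure.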

Other observations

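Lists next to the 2 branches showed further values. Under Aucklandiae_high, GPAT3, an acyltransferase of glycerolipid synthesis, rose from 58.9, 54.5 and 57.0 CPM at the low dose to 87.3, 83.6 and 82.2 (log2 0.57, edgeR adjusted p = 3e-14), and it also rose under Polygalae_high against its low dose (0.51, adjusted p = 1.7e-13). CPT1A, which gates fatty acid entry into mitochondria, rose under Aucklandiae_high (0.33, adjusted p = 9.5e-04) and fell under Schisandrae_high (-0.43, adjusted p = 2.4e-06). ACACB, the mitochondrial acetyl-CoA carboxylase, went from 9.68, 10.5 and 9.11 to 3.69, 3.08 and 2.88 CPM between low and high dose of Schisandrae (-1.60, adjusted p = 6.9e-10).

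In sterol traffic under Schisandrae_high, OSBP, an oxysterol-binding transfer protein, rose from 97.8, 99.8 and 95.1 to 170, 180 and 177 CPM (0.85, adjusted p = 3.6e-14). SOAT1 and TMEM97, both higher under Polygalae_high, fell there by 0.61 and 0.55 (adjusted p = 1.3e-12 and 3.8e-12). LRP8, a lipoprotein receptor, rose under Schisandrae_high (0.72) and Aucklandiae_high (0.50) against their low doses (adjusted p = 2e-08 and 1.6e-04).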
